A study of Mus musculus with 12 samples.

Results

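The genes described are 10 components of the Notch pathway, namely the receptors *Notch1*, *Notch2*, *Notch3* and *Notch4*, the ligands *Dll1*, *Dll4*, *Jag1* and *Jag2*, and the target genes *Hes1* and *Heyl*. They were chosen by name, through the NCBI Gene IDs of the count table, and all 10 were found among the 27179 genes listed. RNA-seq had been performed on 12 tibialis anterior (TA) muscles from 6 male wild type C57BL/6N mice, which had been obtained at 6 to 8 weeks of age and used within 2 weeks of arrival, with a question of how *FRAIL1*, a human lncRNA, alters muscle mRNA levels. In each mouse 1 TA muscle received 10 μg of empty pcDNA3 plasmid (Control muscles, n = 6) and the contralateral TA muscle received 10 μg of plasmid carrying full-length human *FRAIL1* (*FRAIL1* muscles, n = 6). All muscles, Controls included, were treated with hyaluronidase, injected and electroporated, and all were harvested at day 7. The promoter of the plasmid is a viral one (CMV) that is not specific to a cell type, and electroporation reaches part of the fibers of a muscle.

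Notch signaling passes between neighboring cells. A Delta-like or Jagged ligand on 1 cell pulls on a Notch receptor on the next, proteases release the intracellular domain of the receptor, and this domain joins the DNA-binding protein RBPJ and Mastermind coactivators to switch on *Hes* and *Hey* genes. In skeletal muscle the pathway is best known for keeping satellite cells, the stem cells of muscle, quiescent, and for its roles in blood vessels, where *Notch1*, *Notch4* and *Dll4* are active in endothelial cells and *Notch3* in the mural cells around them.

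Total counts lay between 45018389 and 59309210 in Control muscles and between 44848322 and 60527385 in *FRAIL1* muscles, and each of the 10 genes had at least 317 counts in every muscle. Levels are given as CPM, the counts of a gene scaled to a common library size, after TMM scaling, a correction for differences in library composition. TMM factors were 0.935 to 0.983 in Control and 0.965 to 1.19 in *FRAIL1* muscles, with the highest factor in *FRAIL1* muscle 5. The 8 markers of muscle fibers, such as *Acta1* and *Ckm*, summed to 133675 to 157426 CPM in Control muscles and 103119 to 140733 CPM in *FRAIL1* muscles, as the defining mRNAs of the labelled tissue. Muscles with the same number were taken to be the 2 legs of 1 mouse and are called a pair. In these whole muscle samples, fewer cells of a type and less RNA per cell cannot be told apart.

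Of the 10 genes, *Notch2* and *Dll1* rose in *FRAIL1* muscles and none fell (adjusted p under 0.05 in the quasi-likelihood test of edgeR, adjusted by Benjamini-Hochberg over 15502 genes). That fit did not take the pairs into account. With the mouse as a block, a fit that does, *Jag1* also fell, beside 6.62% of all genes lower. *Notch2* mRNA averaged 13.9 ± 1.36 CPM in Control and 19.2 ± 2.61 CPM in *FRAIL1* muscles (SD, n = 6 each), and *Dll1* mRNA 7.69 ± 0.426 CPM and 10.6 ± 2.03 CPM. The other 3 receptors, the other 3 ligands and both target genes did not pass the test without the block. Among all genes tested, 6.28% passed it in either direction, 4.43% higher and 1.85% lower. With 10 genes, a count of 2 is not read as particular to the group. The median log2 fold change was 0.03 over the 10 genes and 0.01 over all genes tested.

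**Figure D1:**
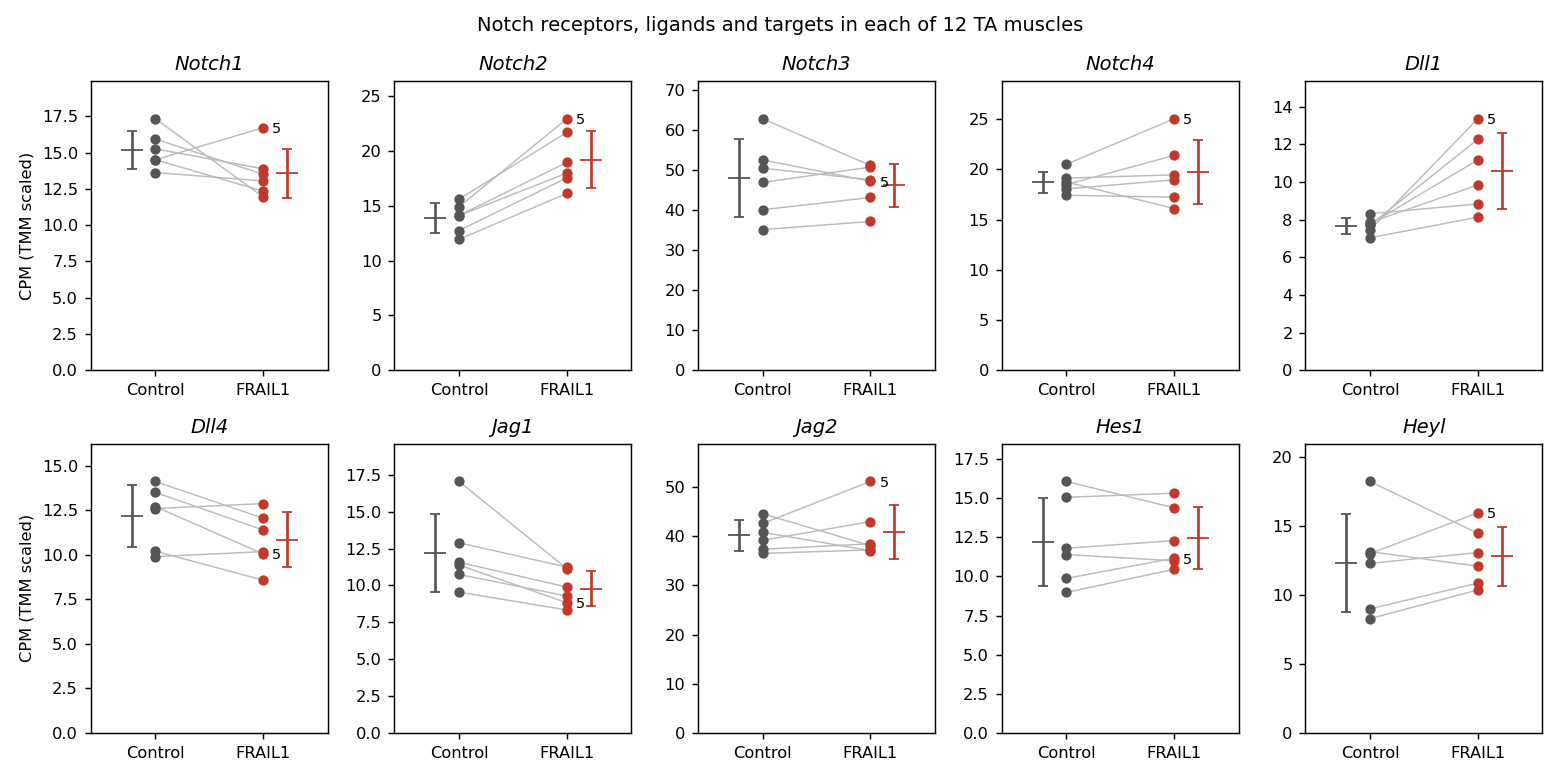
CPM (y axis, from 0) of the 10 genes in each muscle, with Control muscles in grey and *FRAIL1* muscles in red, a line between the 2 muscles of a number, and the mean ± SD beside the points; the digit 5 marks *FRAIL1* muscle 5. For *Notch2* the lowest *FRAIL1* muscle (16.1 CPM) lies above the highest Control muscle (15.6 CPM), and for *Jag1* all 6 lines slope down.

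*Notch2* encodes a receptor that satellite cells and their progeny carry among other cells. The gene (Gene ID 18129) lies at chr3:98013538-98150367 on the plus strand of GRCm38, and the counts cover its exons. Its mRNA was at 11.9 CPM in the lowest, 14.1 CPM in the median and 15.6 CPM in the highest Control muscle. In *FRAIL1* muscles the corresponding levels were 16.1, 18.5 and 22.9 CPM. The groups did not overlap, a pattern found for 4.88% of all genes tested in either direction, and *FRAIL1* muscles 5 and 4 were the highest. The log2 fold change came to 0.47 (standard error 0.09, adjusted p = 0.0136, edgeR), and the level was higher in 6 of 6 pairs, by 0.35 to 0.62 on the log2 scale. Leaving out any 1 muscle gave adjusted p-values of 0.00594 to 0.0362, and without both muscles numbered 5 the log2 fold change was 0.43 (adjusted p = 0.0164, edgeR).

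*Notch1*, the receptor best known from T cells and from endothelium, was at 13.6 to 17.3 CPM in Control muscles (median 14.9) and at 11.9 to 16.7 CPM in *FRAIL1* muscles (median 13.3). The groups overlapped, with *FRAIL1* muscle 5 as the only *FRAIL1* muscle above its partner. The log2 difference was -0.16 (standard error 0.09, adjusted p = 0.230, edgeR), and it passed the threshold in 1 of 24 alternative analyses, the one with the mouse as a block and without the muscles numbered 5 (adjusted p = 0.0446, edgeR). *Notch3*, the receptor of pericytes and vascular smooth muscle, had the widest Control range of the receptors in CPM, from 35.1 to 62.8, and spanned 37.1 to 51.1 CPM in *FRAIL1* muscles. Its log2 difference was -0.06 (standard error 0.12, adjusted p = 0.803, edgeR), smaller in size than its standard error. *Notch4*, an endothelial receptor, spanned 17.4 to 20.5 CPM in Control and 16.1 to 25.0 CPM in *FRAIL1* muscles, with a log2 difference of 0.07 (standard error 0.09, adjusted p = 0.636, edgeR).

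The ligand gene *Dll1* (Gene ID 13388, chr17:15367354-15376932, minus strand), whose product activated myogenic cells can present to their neighbors, was at 7.04 CPM in the lowest, 7.74 CPM in the median and 8.32 CPM in the highest Control muscle. In *FRAIL1* muscles it was at 8.14, 10.5 and 13.4 CPM. The groups touched only at their edges: *FRAIL1* muscle 1 lay below Control muscle 3, and every other *FRAIL1* muscle lay above all Controls. Control muscles were close together, and *FRAIL1* muscles spread with an SD of 2.03 CPM against 0.426 CPM. The log2 fold change came to 0.46 (standard error 0.11, adjusted p = 0.0286, edgeR), and the level was higher in 6 of 6 pairs, by 0.09 to 0.84 on the log2 scale. This call stood close to the threshold. It was kept in 6 of 12 fits that left out 1 muscle and lost without Control muscle 1, 2, 4, 5 or 6 or *FRAIL1* muscle 6, with adjusted p-values up to 0.0663, and it was lost without both muscles numbered 5 (log2 fold change 0.38, adjusted p = 0.0585, edgeR).

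*Jag1* (Gene ID 16449, chr2:137081451-137116520, minus strand), a ligand of endothelial and smooth muscle cells, was at 9.54 to 17.0 CPM in Control muscles (median 11.5) and at 8.33 to 11.2 CPM in *FRAIL1* muscles (median 9.58). All 6 pairs had the lower level on the *FRAIL1* side, with log2 ratios of -0.61 to -0.20, although the groups overlapped because Controls differed from each other. The log2 difference of -0.32 (standard error 0.13) did not pass the test (adjusted p = 0.120, edgeR). With the mouse as a block it passed (log2 difference -0.30, adjusted p = 0.0286, edgeR), in a fit in which 14.1% of all genes passed, 7.48% higher and 6.62% lower. *Dll4*, the Delta-like ligand of arterial and sprouting endothelium, spanned 9.89 to 14.1 CPM in Control and 8.57 to 12.9 CPM in *FRAIL1* muscles, with a log2 difference of -0.16 (standard error 0.11, adjusted p = 0.355, edgeR). *Jag2* was the ligand with the highest mRNA level, at 36.5 to 44.6 CPM in Control and 37.1 to 51.2 CPM in *FRAIL1* muscles, with a log2 difference of 0.02 (standard error 0.08, adjusted p = 0.882, edgeR).

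*Hes1* and *Heyl* encode basic helix-loop-helix repressors that Notch switches on, *Heyl* in satellite cells and mural cells among others. *Hes1* was at 8.97 to 16.1 CPM in Control muscles (median 11.6) and at 10.5 to 15.3 CPM in *FRAIL1* muscles (median 11.7). *Heyl* was at 8.28 to 18.2 CPM in Control muscles (median 12.6) and at 10.4 to 15.9 CPM in *FRAIL1* muscles (median 12.6). For both genes the *FRAIL1* muscles lay within the range of the Controls. The log2 difference was 0.03 for *Hes1* (standard error 0.14, adjusted p = 0.925, edgeR) and 0.06 for *Heyl* (standard error 0.17, adjusted p = 0.865, edgeR), and each gene was higher in 4 of 6 pairs. These were the largest standard errors among the 10 genes, and differences within them were not detectable here.

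Some muscles stood at the edge of their group for many of the genes. Control muscle 6 had the highest level of 6 genes (*Notch1*, *Notch3*, *Dll4*, *Jag1*, *Jag2* and *Heyl*) and Control muscle 1 the lowest level of 5. *FRAIL1* muscle 5 had the highest level of 6 genes (*Notch1*, *Notch2*, *Notch4*, *Dll1*, *Jag2* and *Heyl*) and *FRAIL1* muscle 1 the lowest level of 5.

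To compare levels between genes, CPM were divided by the length of all annotated exons of a gene in kilobases (RPKM). In Control muscles *Hes1* (5.99 ± 1.38 RPKM), *Notch3* (5.93 ± 1.20 RPKM) and *Jag2* (5.77 ± 0.445 RPKM) were highest, with ranges that overlapped (SD, n = 6). *Dll4* (3.16 ± 0.451 RPKM) lay below all 3. *Heyl* (2.41 ± 0.697 RPKM), *Notch4* (2.32 ± 0.131 RPKM), *Jag1* (2.09 ± 0.449 RPKM) and *Dll1* (1.82 ± 0.101 RPKM) followed, and neighbors in that order overlapped in range. *Notch2* (1.29 ± 0.126 RPKM) was below every Control value of *Dll1*, and *Notch1* (1.07 ± 0.0918 RPKM) overlapped with *Notch2*. In *FRAIL1* muscles *Dll1* (2.51 ± 0.480 RPKM) and *Notch2* (1.78 ± 0.242 RPKM) had moved above *Jag1* (1.68 ± 0.207 RPKM) by mean level, although both overlapped with *Jag1* in range.

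**Figure D2:**
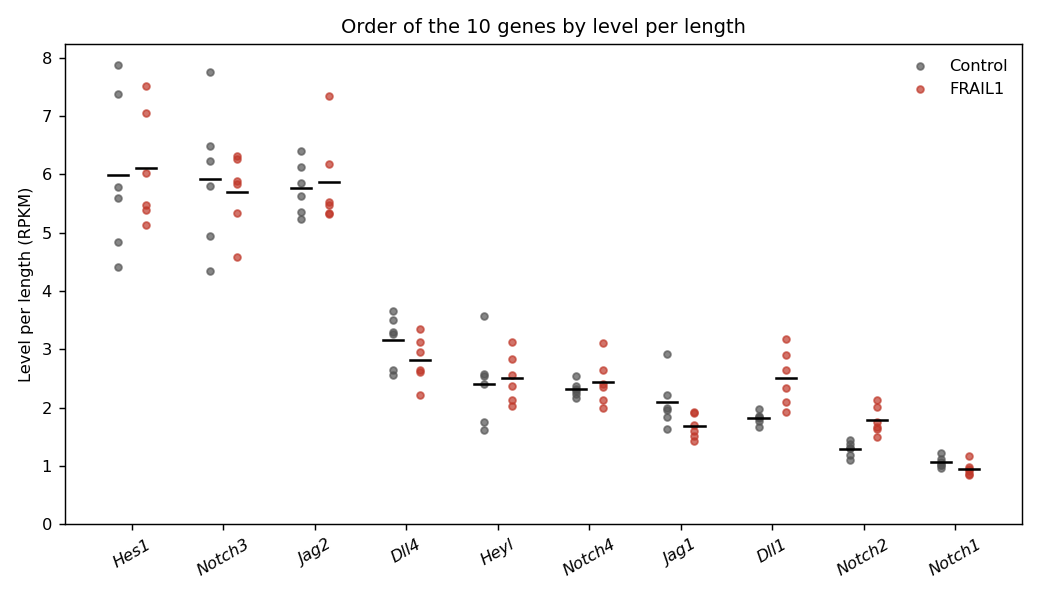
Level per exon length in RPKM (y axis, from 0) of the 10 genes, in the order of their Control means, with 1 point per muscle (Control grey, *FRAIL1* red) and a bar at each group mean. *Hes1*, *Notch3* and *Jag2* form the upper set near 6 RPKM, and *Notch2* and *Dll1* are the genes whose *FRAIL1* points sit highest relative to their Control points.

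The receptors and ligands were also set against each other within each muscle, as a description without a test. The numerators were *Notch2* and *Dll1*, the genes that had passed the test, so the ratios partly restate those calls. How often such ratios separate over all genes was not counted. *Notch2* mRNA per length was 1.22 ± 0.198 times that of *Notch1* in Control muscles (0.989 to 1.51) and 1.88 ± 0.234 times in *FRAIL1* muscles (1.58 to 2.20), with no overlap. Against the other receptors the groups overlapped: *Notch2* was 0.169 to 0.302 times *Notch3* in Control and 0.239 to 0.383 times in *FRAIL1* muscles, and 0.483 to 0.623 times and 0.564 to 1.01 times *Notch4*, higher in 6 of 6 pairs for both. Its share of the summed receptor RPKM was 12.3% ± 2.07 in Control and 16.5% ± 2.53 in *FRAIL1* muscles, while *Notch3* held the largest share in both groups, 55.4% ± 4.51 and 52.4% ± 3.45. The summed receptor level was 10.6 ± 1.34 RPKM in Control and 10.9 ± 0.993 RPKM in *FRAIL1* muscles. Among ligands, *Dll1* mRNA was 0.897 ± 0.151 times that of *Jag1* in Control muscles (0.629 to 1.02) and 1.51 ± 0.303 times in *FRAIL1* muscles (1.24 to 2.09), again with no overlap. Against the other ligands the groups overlapped: *Dll1* was 0.503 to 0.726 times *Dll4* in Control and 0.627 to 1.22 times in *FRAIL1* muscles, higher in 6 of 6 pairs, and 0.288 to 0.355 times and 0.340 to 0.547 times *Jag2*, higher in 5 of 6 pairs. The share of *Dll1* in the summed ligand RPKM was 14.3% ± 1.38 and 19.4% ± 2.48, and that of *Jag1* was 16.2% ± 1.89 and 13.1% ± 1.58. The summed ligand level was 12.8 ± 1.30 RPKM in Control and 12.9 ± 1.22 RPKM in *FRAIL1* muscles. The values describe mRNA in the whole muscle and not which cells carried it.

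The reads of some of these genes could include those of an overlapping gene, since it is not stated whether counting used strand. An antisense gene, *A930024N18Rik*, covers 20.5% of the exon bases of *Dll1*, and antisense genes cover 9.76% of *Notch1*, 6.03% of *Notch3* and 5.56% of *Dll4*. A gene on the same strand, *Gm42820*, covers 5.02% of *Notch2*, and there the strand setting makes no difference. For *Notch4*, *Jag1*, *Jag2*, *Hes1* and *Heyl* no overlapping exon was annotated.

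The rest of the pathway was read from a list of 60 further genes, of which 54 were abundant enough to test; *Dll3*, *Dlk2*, *Hes2*, *Hes3*, *Hes5* and *Hes7* were not. Of the 54, *Hes6* rose, *Ep300* fell and 52 did not pass the test, beside the 4.43% and 1.85% of all genes given above. The median log2 fold change of the 54 genes was -0.01. With the mouse as a block, *Dtx4* also rose and *Epn2* also fell.

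*Hes6* (Gene ID 55927, chr1:91411483-91414038, minus strand) encodes a Hes family member that opposes the action of *Hes1* and is expressed in differentiating myoblasts. It was at 9.52 CPM in the lowest, 10.4 CPM in the median and 11.6 CPM in the highest Control muscle, and at 13.5, 16.3 and 25.9 CPM in *FRAIL1* muscles. The groups did not overlap, and *FRAIL1* muscle 5 stood apart at the top. The log2 fold change came to 0.74 (standard error 0.13, adjusted p = 0.00770, edgeR), higher in 6 of 6 pairs, and without both muscles numbered 5 it was 0.63 (adjusted p = 0.00103, edgeR). The other tested genes listed with *Hes6* were *Hey1*, *Hey2* and *Nrarp*, the last a feedback inhibitor of the pathway. Their log2 differences of -0.22 to 0.07 did not pass the test.

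*Ep300* (Gene ID 328572, chr15:81586209-81652077, plus strand) encodes the acetyltransferase p300, a general coactivator that also joins the Notch transcription complex. It was at 32.2 to 40.6 CPM in Control muscles (median 36.3) and at 25.9 to 34.2 CPM in *FRAIL1* muscles (median 30.9), and it was lower in 6 of 6 pairs. The groups overlapped, and the log2 fold change came to -0.27 (standard error 0.07, adjusted p = 0.0384, edgeR). The call was kept in 4 of 12 fits that left out 1 muscle and lost without Control muscle 1, 2, 3, 4 or 6 or *FRAIL1* muscle 1, 4 or 6, with adjusted p-values of 0.0221 to 0.0882 over the 12. *Rbpj* and the Mastermind genes *Maml1*, *Maml2* and *Maml3*, the core of the same complex, did not pass. *Kat2b*, another acetyltransferase gene of the complex, had a larger log2 difference than *Ep300* (-0.37, standard error 0.13) with a wider error and did not pass (adjusted p = 0.0880, edgeR), but it did with DESeq2 (adjusted p = 0.0411, and 0.00438 with the block), with limma voom (0.0437) and without *FRAIL1* muscle 2 (0.0377, edgeR).

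None of the 9 genes of receptor cleavage, which include *Adam10*, *Adam17* and the subunits of γ-secretase, passed the test, and their log2 differences ran from -0.04 to 0.15. The same held for the 5 genes of receptor glycosylation (-0.11 to 0.26) and the 11 genes of corepressors (-0.22 to 0.31). All 6 genes of ligand endocytosis, the step by which the ligand pulls on the receptor, had log2 differences below 0 (-0.23 to -0.05), and none passed. *Epn2* (log2 difference -0.23, adjusted p = 0.0695, edgeR) passed in 7 of 24 alternatives, among them the fit with the mouse as a block (0.0233), DESeq2 (0.0396), and edgeR without *FRAIL1* muscle 2 (0.0375) or 3 (0.0460). *Epn1* (-0.22, adjusted p = 0.0839, edgeR) passed with DESeq2 (0.0425, and 0.0420 with the block). Of 10 genes of receptor trafficking and turnover, none passed. The ubiquitin ligase gene *Dtx4* (log2 difference 0.38, adjusted p = 0.0662, edgeR) passed in 7 of 24 alternatives, among them the fit with the mouse as a block (0.0267), DESeq2 (0.0347), and edgeR without *FRAIL1* muscle 2 (0.0445) or 3 (0.0459) or without both muscles numbered 5 (0.0492). *Dlk1*, a Delta-like protein without the usual receptor-binding domain, is named after its values were seen: it was at 1.18 to 4.79 CPM in Control muscles and at 1.39 to 6.51 CPM in 5 *FRAIL1* muscles but at 43.1 CPM in *FRAIL1* muscle 5, and did not pass (adjusted p = 0.155, edgeR). Per length the highest of the 54 genes in Control muscles were *Epn1* (69.4 ± 3.90 RPKM), *Neurl1a* (32.7 ± 2.09 RPKM) and *Kat2b* (17.0 ± 1.73 RPKM), none of which passed the test in the fit reported.

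**Figure D3:**
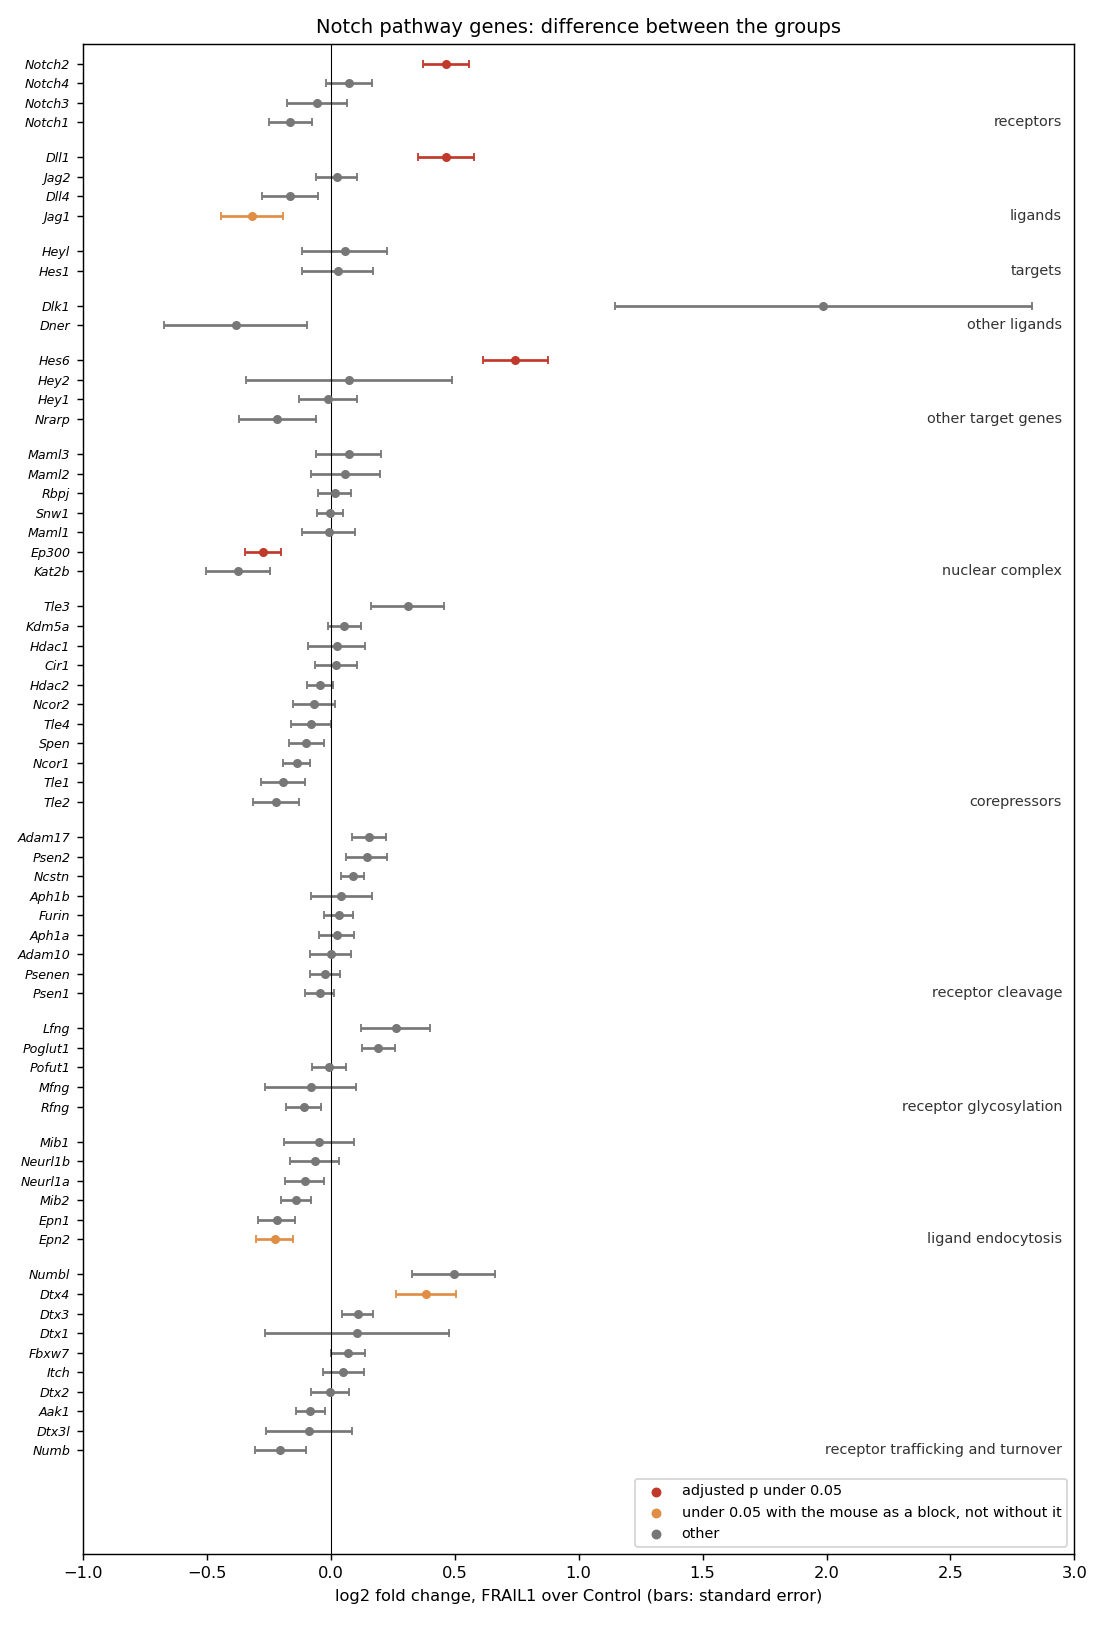
Log2 fold change of *FRAIL1* over Control muscles (x axis) with its standard error for the 10 genes (top 3 groups) and the 54 further pathway genes that were tested, by role; red marks an adjusted p under 0.05, orange one under 0.05 with the mouse as a block but not without it. *Notch2*, *Dll1* and *Hes6* are the red points above 0 and *Ep300* the red point below 0, and the wide bar is that of *Dlk1*. The group labelled other target genes holds the further *Hes* and *Hey* genes and *Nrarp*, listed by family and not by response to Notch.

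Because *Notch2*, *Dll1* and *Hes6* were the pathway genes that rose, their promoters are shown. RefSeq promoter windows on GRCm38.p6, the build called mm10, were at hand for 8 of the 10 genes, 9 windows in all. None was at hand for the target genes *Hes1* and *Heyl*. Each window runs from 250 bases before a transcription start to 50 bases after it. Printed are the 250 bases before the start, 5′ to 3′ on the strand of the gene, in lower case with capitals for each E-box (CANNTG), the motif that basic helix-loop-helix proteins such as MyoD and myogenin bind. The windows are chr3:98013288-98013537 (plus strand) for *Notch2*, chr17:15375824-15376073 and chr17:15376933-15377182 (minus strand) for *Dll1*, and chr1:91414039-91414288 and chr1:91413223-91413472 (minus strand) for *Hes6*.
Notch2: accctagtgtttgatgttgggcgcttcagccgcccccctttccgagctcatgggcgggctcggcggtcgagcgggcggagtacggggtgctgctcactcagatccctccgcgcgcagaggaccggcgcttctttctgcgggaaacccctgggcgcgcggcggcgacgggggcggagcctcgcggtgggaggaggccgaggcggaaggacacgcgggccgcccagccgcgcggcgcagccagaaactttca
Dll1, first start: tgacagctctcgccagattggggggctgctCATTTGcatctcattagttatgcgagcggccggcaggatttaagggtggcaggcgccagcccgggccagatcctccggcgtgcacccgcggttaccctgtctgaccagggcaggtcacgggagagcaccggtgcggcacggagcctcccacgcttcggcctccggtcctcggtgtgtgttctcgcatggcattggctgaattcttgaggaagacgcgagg
Dll1, second start: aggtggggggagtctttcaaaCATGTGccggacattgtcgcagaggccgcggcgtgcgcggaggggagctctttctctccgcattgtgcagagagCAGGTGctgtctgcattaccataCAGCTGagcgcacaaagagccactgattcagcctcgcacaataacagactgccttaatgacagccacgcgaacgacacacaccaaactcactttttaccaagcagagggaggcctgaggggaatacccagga
Hes6, first start: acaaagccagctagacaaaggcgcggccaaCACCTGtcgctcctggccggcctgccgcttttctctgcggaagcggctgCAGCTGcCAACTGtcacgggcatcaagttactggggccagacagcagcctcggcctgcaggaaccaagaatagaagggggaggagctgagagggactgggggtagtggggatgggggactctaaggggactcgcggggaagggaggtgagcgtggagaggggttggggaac
Hes6, second start: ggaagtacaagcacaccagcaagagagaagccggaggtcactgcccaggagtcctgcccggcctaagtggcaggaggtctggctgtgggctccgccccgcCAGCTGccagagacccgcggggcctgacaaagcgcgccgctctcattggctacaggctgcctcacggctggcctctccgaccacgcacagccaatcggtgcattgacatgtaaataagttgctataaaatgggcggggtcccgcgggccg

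The *Notch2* window held no E-box. The *Dll1* windows held 1 E-box (220 bases before the start) and 3 E-boxes (229, 155 and 132 bases before it), and the *Hes6* windows held 3 (220, 171 and 164 bases before the start) and 1 (150 bases before it). Over the 8 receptor and ligand genes, 4 of 9 windows (44.4%) held an E-box, beside 72.3% of all 32851 windows of the same length. The core of the RBPJ site (TGGGAA, either strand) was in 0 of 9 windows and in 25.6% of all windows. The target genes *Hes1* and *Heyl* had no window and were not searched for any motif. The N-box of Hes repressors (CACNAG, either strand) was in 5 of 9 windows (55.6%) and in 42.5% of all. These matches describe letters in short windows.

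Because Notch genes are read in whole muscle, markers of the cells that carry them were read beside them, without counting any of the 10 genes. Of 10 satellite cell markers, 2 rose in *FRAIL1* muscles and none fell, with a median log2 fold change of 0.33, beside 4.43% of all genes higher. With the mouse as a block 5 rose, beside 7.48% of all genes. The risers were *Itga7*, an integrin of the satellite cell and fiber surface (log2 fold change 0.47, standard error 0.09, adjusted p = 0.0124, edgeR), and the receptor gene *Fgfr4* (1.04, standard error 0.25, adjusted p = 0.0336, edgeR). The *Fgfr4* call was lost without any 1 of the 6 Control muscles or without *FRAIL1* muscle 1 or 6 (adjusted p up to 0.0748, edgeR), while that of *Itga7* was kept in 12 of 12 such fits. *Pax7*, the defining transcription factor of satellite cells, was at 1.38 to 3.11 CPM in Control and at 3.06 to 4.56 CPM in *FRAIL1* muscles, with an adjusted p of 0.0634 without and 0.0345 with the mouse as a block (edgeR). The 10 markers summed to 236 to 267 CPM in Control and 279 to 404 CPM in *FRAIL1* muscles, and their mean was higher in 6 of 6 pairs. Of 6 markers of myoblasts and regenerating fibers, 5 rose, with a median log2 fold change of 1.80, beside 4.43% of all genes higher. With the mouse as a block 6 rose, beside 7.48% of all genes. The sum of these 6 markers was 164 to 215 CPM in Control and 327 to 1554 CPM in *FRAIL1* muscles. *Notch2* and *Dll1* rose in muscles in which these markers were higher too, and pair 5 had the largest log2 difference for both genes and both lists. In the order of pairs 1 to 6, the log2 differences of *Notch2* were 0.42, 0.46, 0.43, 0.48, 0.62 and 0.35. Those of *Dll1* were 0.21, 0.67, 0.09, 0.33, 0.84 and 0.53. The satellite cell list had 0.37, 0.33, 0.21, 0.09, 0.65 and 0.32 in the same order. The myoblast and regenerating fiber list had 1.36, 0.86, 1.02, 1.41, 2.26 and 1.77. The part of these cells in the change of *Notch2* and *Dll1* was not tested. Without the muscles numbered 5 the median log2 fold change was 0.22 for satellite cell markers and 1.46 for myoblast and regenerating fiber markers.

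Of 16 endothelial markers, 4 fell in *FRAIL1* muscles and none rose, with a median log2 fold change of -0.19, beside 1.85% of all genes lower. With the mouse as a block 7 fell, beside 6.62% of all genes. Those that fell were the receptors *Flt1* (log2 fold change -0.48, adjusted p = 0.0326) and *Tek* (-0.41, adjusted p = 0.0186), the phosphatase *Ptprb* (-0.33, adjusted p = 0.0481) and *Vwf*, the von Willebrand factor (-0.25, adjusted p = 0.0481, all edgeR). *Pecam1* (-0.15, adjusted p = 0.204) and *Cdh5* (-0.18, adjusted p = 0.188), which define endothelium, did not pass in the fit reported (edgeR). *Pecam1* passed in 4 of 24 alternatives, among them the fit without *FRAIL1* muscle 5 (adjusted p = 0.0309, edgeR), and *Cdh5* passed in 2. Of the 4 calls in the fit reported, that of *Tek* was kept in 12 of 12 fits that left out 1 muscle. *Flt1* was lost without Control muscle 1, 2, 3, 4 or 6 or *FRAIL1* muscle 1 or 6 (up to 0.0704), and *Ptprb* and *Vwf* were each lost in all such fits but those without *FRAIL1* muscle 2 or 3 (up to 0.0996 and 0.0931). Without both muscles numbered 5, the median of the endothelial list was -0.20. The sum of the 16 markers was 763 to 899 CPM in Control and 623 to 778 CPM in *FRAIL1* muscles. None of 7 markers of arterial endothelium passed (median -0.25), and none of 10 markers of mural cells did (median -0.13), among them *Rgs5* (-0.44, adjusted p = 0.130, and 0.00230 with the mouse as a block) and *Pdgfrb* (-0.10, adjusted p = 0.498, edgeR). Of the genes described above as vascular, *Jag1*, *Dll4* and *Notch1* had log2 differences of -0.32, -0.16 and -0.16. *Notch3*, of mural cells, had -0.06 and *Notch4*, of endothelium, 0.07. They stood beside medians of -0.19 for the endothelial and -0.13 for the mural list. The part of endothelial and mural cells in those differences was not tested.

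Among the remaining lists, 8 fibro-adipogenic markers (median log2 fold change 0.37), 9 macrophage markers (0.59), 6 Schwann cell markers (-0.26) and 6 lymphocyte markers (-0.21) held no gene that passed. With the mouse as a block, 5 macrophage markers and 1 lymphocyte marker rose, beside 7.48% of all genes higher. In that fit 2 arterial endothelial, 2 mural and 2 muscle fiber markers fell, beside 6.62% of all genes lower. Of 8 muscle fiber markers *Ckm* fell without the block (adjusted p = 0.0482, edgeR), beside 1.85% of all genes lower. That call was kept in 3 of 12 fits that left out 1 muscle, those without *FRAIL1* muscle 2, 3 or 5. The list median was -0.24. No marker on any list was at 0 in all muscles.

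**Figure D4:**
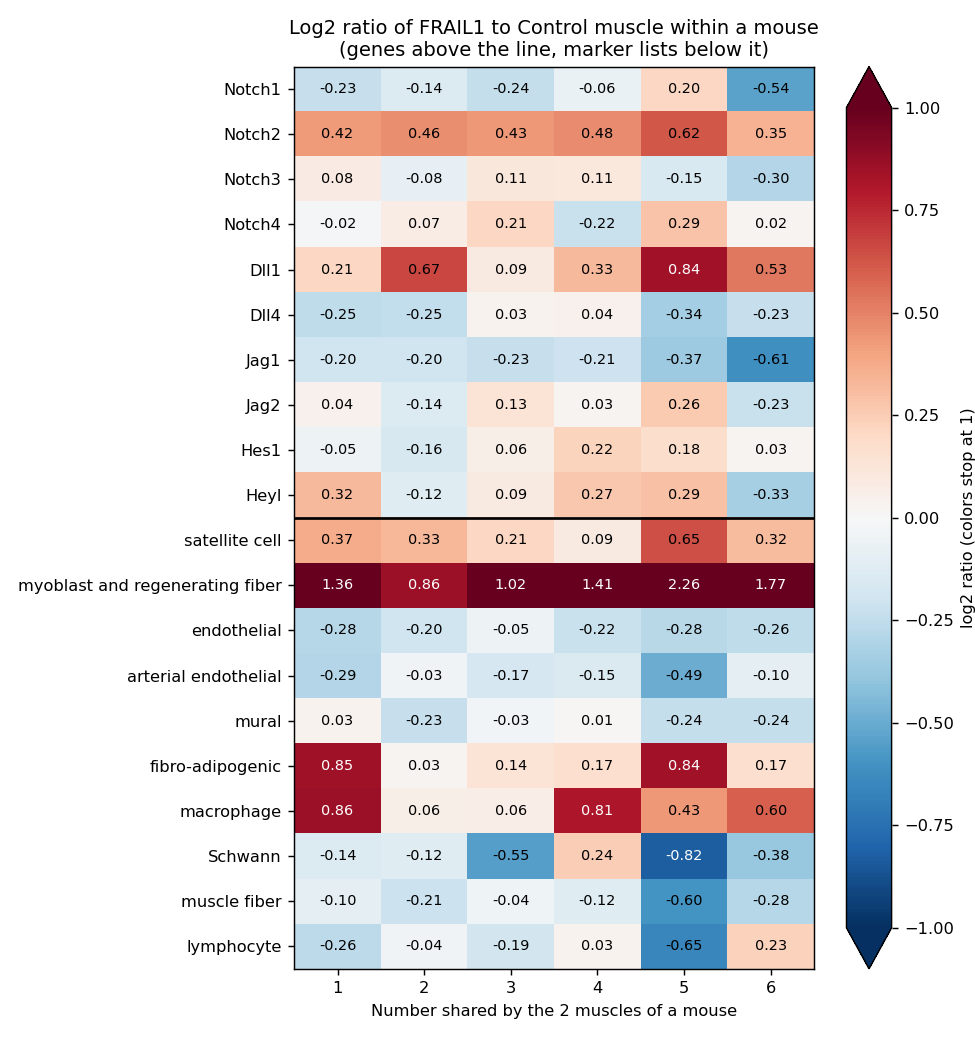
Log2 ratio of the *FRAIL1* to the Control muscle for each of 6 numbers (columns), for the 10 genes (above the line) and for the mean of each marker list (below it); red is higher and blue lower in the *FRAIL1* muscle, and colors stop at 1. The *Notch2* row is red in all 6 columns (0.35 to 0.62) and the *Jag1* row blue in all 6, and column 5 holds the largest values for *Notch2*, *Dll1* and the satellite cell and regenerating fiber lists.

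For the genes that rose, the tested genes most alike in their variation within groups were sought, by Pearson's r of log2 CPM after the group mean was taken away, over 12 muscles. They were *Abracl* (r = 0.941), *Rassf2* (0.939) and *Yipf1* (0.936) for *Notch2*, and *Pcdhb7* (0.957), *Chrnd* (0.931) and *Zfyve16* (0.917) for *Dll1*. These are the highest of 15502 values each and share the libraries. *Pcdhb7* was at a low level, with means of 0.324 CPM in Control and 0.390 CPM in *FRAIL1* muscles. *Chrnd*, a subunit of the acetylcholine receptor of the neuromuscular junction, itself rose from 6.70 to 15.6 CPM (log2 fold change 1.22, standard error 0.16, adjusted p = 0.00209, edgeR), whereas the other 5 did not pass the test. Of these, *Rassf2* passed with the mouse as a block (adjusted p = 0.0106, edgeR).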

How the data were processed

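RNA was extracted with TRIzol and RNeasy columns, and poly(A) mRNA libraries were sequenced as paired-end reads. According to the study's methods and the submitters' processing notes, the authors trimmed reads with Trimmomatic, mapped them to mm10 with STAR 2.7.8a and counted uniquely mapped reads per gene with featureCounts 2.0.1. The deposited values are whole-number counts without normalization. The strand setting and the annotation release of the counting are not given in the sources used here. Human *FRAIL1* is not among the mouse genes counted, so its level was not analysed here.

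Of 27179 genes listed, 25275 were matched to a symbol through NCBI Gene IDs, and the others held 0.280% of the counts. After filterByExpr left 15502 genes, TMM scaling and the robust quasi-likelihood fit of edgeR 4.0.16 (R 4.3.3) were applied, and a gene passed the test at a Benjamini-Hochberg adjusted p under 0.05. The standard error of a log2 fold change was derived from the F statistic. CPM used effective library sizes, and RPKM the exons of the GENCODE annotation of GRCm38. Exon copies were sought with BLAST 2.17.0 (98% identity over 100 bases), which found no copies other than the overlapping genes. The code was tested on simulated counts. Pairs of libraries within a group differed beyond sampling noise (chi-square of at least 14.5 per degree of freedom). Depth mainly limits genes with few counts, and errors are the spread between muscles.

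Samples were grouped by their titles. The design states that the legs of a mouse received different plasmids and both groups carry numbers 1 to 6, so same-numbered muscles were taken as 1 mouse. The labels do not state this. Deviations from the group mean correlated at 0.254, 0.162, 0.282, 0.263, 0.0547 and 0.185 for numbers 1 to 6, and at -0.06 to -0.01 on average with other numbers. Because the deviations of a group cancel out, the averages with other numbers largely follow from the same-number values. Alternatives were this number as a block, other scalings, filters and tools (DESeq2 1.42.0 and limma 3.58.1), each muscle left out, and both muscles numbered 5 left out.

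The 10 genes and the lists were chosen with earlier results of these data known. Named beyond them are pathway genes that passed the test or whose groups did not overlap, the 3 highest per length, the 3 most alike in variation, and markers that passed or define a cell type. *Dlk1*, *Dtx4*, *Epn2* and *Ckm* were named after their values were seen.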

Additional observations from a re-analysis of the deposited data

Results flagged for a closer look

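The named genes make 72 groups of 6 muscles. In each, the highest and the lowest muscle were compared with the rest by Dixon's ratio, and 6 stood apart. For unrelated groups chance alone gives about 1 in 20. These groups share the same libraries, and many of the genes were named for their values, so that rate is no measure here. Of the 6 that stood apart, 5 were in *FRAIL1* muscle 5. *Hes6* was at 25.9 CPM there, with the next *FRAIL1* muscle at 18.2 CPM. *Pax7* was at 4.56 CPM there, with the next at 3.56 CPM. *Fgfr4* was at 22.3 CPM there, with the next at 11.3 CPM. *Dlk1* was at 43.1 CPM there, with the next at 6.51 CPM. *Dtx4* was at 17.5 CPM there, with the next at 12.9 CPM. The last was *Dlk1* in Control muscle 4, at 4.79 CPM with the next Control muscle at 2.43 CPM. *Dlk1* and *Dtx4* were named after their values were seen. None of the 10 Notch genes stood apart by this measure in either group. *FRAIL1* muscle 5 also had the highest TMM factor (1.19) and the lowest share of mitochondrial counts (6.58%, against 7.54% to 11.4% in the other muscles). The cause was not tested.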

How the results depend on the processing

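*Notch2* and *Hes6* passed the test in all 24 alternatives, and *Dll1* in 17. Of the 10 genes, 2 passed in the fit reported, 1 to 2 when each muscle was left out, 1 without both muscles numbered 5 (5.61% of all genes), and 4 without them and with the replicate block (*Notch1* and *Jag1* as well, with 14.8% of all genes). The block alone brought in *Jag1* and changed no other call among the 10. Of the further pathway genes, 2 passed in the fit reported, 4 with the block, 9 with DESeq2, 8 with DESeq2 and the block, 4 with limma voom, 4 without the muscles numbered 5 and with the block, and 1 to 5 when each muscle was left out. Of the cell type markers, 12 passed in the fit reported, 30 with the block, 29 with DESeq2, 41 with DESeq2 and the block, 21 with limma voom, 33 without the muscles numbered 5 and with the block, and 6 to 30 when each muscle was left out. The cause of these differences was not tested. Over all genes, 974 (6.28%) passed in the fit reported, 2186 (14.1%) with the block, 2211 (14.3%) with DESeq2, 2875 (18.5%) with DESeq2 and the block, 1756 (11.3%) with limma voom and 364 to 2110 when each muscle was left out. The ratio between the highest and the lowest of the 10 genes was 5.61 per length (*Hes1* over *Notch1*) and 6.23 in CPM (*Notch3* over *Dll1*).

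Directions turned only where the log2 difference was near 0 or, for *Pcdhb7*, had a wide error. With limma voom it was -0.0060 for *Notch4*, -0.036 for *Jag2* and -0.13 for *Pcdhb7*. Without both muscles numbered 5 it was -0.036 for *Jag2* (-0.035 with the block), -0.0031 for *Heyl* and -0.052 for *Pcdhb7* (-0.18 with the block). When each muscle was left out it ran from -0.13 to 0.036 for *Notch3*, -0.0080 to 0.12 for *Notch4*, -0.053 to 0.055 for *Jag2*, -0.047 to 0.12 for *Hes1*, -0.037 to 0.20 for *Heyl* and -0.0065 to 0.15 for *Yipf1*. Depth limits the genes below the filter, such as *Hes5* and *Dll3*, whose changes were not detectable here.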
